A study of Mus musculus with 27 samples.

Results

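The cornichon family of the mouse comprises 4 genes, Cnih1, Cnih2, Cnih3 and Cnih4, and their transcripts were followed through polyA+ RNA sequencing of E14 mouse embryonic stem cells. The members were taken as the rows of the deposited expression table that carry these gene symbols, 4 of 53379 genes. All 4 were among the 20611 genes that passed the filter on low values (at least 1 TPM in at least 3 libraries). Cnih3 was singled out within the family because it was chosen by its higher level after knockdown in these same libraries. Its knockdown differences are therefore given as a description, with no test. The tests concern the 3 paralogs after knockdown, with the second siRNA added and between the fractions of control cells.

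Cornichons are small membrane proteins of the endoplasmic reticulum that act as cargo receptors: they bind secretory proteins and hand them to the COPII coat, which buds the transport vesicles. Cnih1 and Cnih4 are broadly expressed members linked to the export of cargo such as growth factor precursors and G protein-coupled receptors. Cnih2 and Cnih3 are best known in the brain, where they bind AMPA-type glutamate receptors as auxiliary subunits and slow the closing of the channel. PTBP1 is an RNA-binding protein that represses neuronal exons in non-neuronal cells, and PTBP2 is its paralog in developing neurons.

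The cells were grown on gelatin in medium with LIF, which keeps them undifferentiated. They received 20 uM siRNA against eGFP (siGFP, the control), against PTBP1 (siPTBP1), or against PTBP1 and PTBP2 together (called the double knockdown here), in 2 rounds 24 h apart, and were collected at 48 h. No label names a deletion in any group, and every group, the control included, was transfected. The cells were separated into cytoplasmic, nucleoplasmic and chromatin-associated RNA, which gave 9 groups of 3 libraries, 27 in all. The series calls the replicates biological; no label names separate thaws or passages, so a p-value here speaks only for the spread among the sequenced libraries. Because the material is 1 cell line in bulk, a change in the number of cells of a type cannot be told apart from a change in RNA per cell.

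The targeted transcripts were checked first. Ptbp1 stood at 549 ± 56.2 TPM in the control cytoplasm, at 123 ± 18.1 TPM after siPTBP1 and at 142 ± 50.1 TPM in the double knockdown (mean ± SD, n = 3). In chromatin it stood at 514 ± 156, 243 ± 50.7 and 287 ± 61.8 TPM, and that decrease was not called in limma (adjusted p = 0.16 for siPTBP1 and 0.367 for the double knockdown, against 0.00541 and 0.0303 with the replicate number as a block). Ptbp2 stood at 11.3 ± 6.76, 13.9 ± 8.99 and 5.43 ± 3.45 TPM in the cytoplasm of the 3 treatments. There the double knockdown differed from the control at an adjusted p of 0.00113 with the block and 1 without it. In the nucleoplasm Ptbp2 stood at 15.8 ± 6.97, 13.3 ± 6.62 and 9.12 ± 4.85 TPM (limma adjusted p = 0.00714 with the block). In chromatin it stood at 67.5 ± 38.7, 57.5 ± 29.6 and 54.9 ± 27.3 TPM (limma adjusted p = 0.587 with the block). The 8 pluripotency markers summed to 4074 to 4342 TPM in the control cytoplasm, so markers of the labelled cell type were abundant. They summed to 3223 to 3723 TPM after siPTBP1 and 3327 to 3721 TPM in the double knockdown. Their median differences there were -0.43 and -0.59. None was called in limma without the block. With it Zfp42, Klf4 and Nanog were called lower in the double knockdown cytoplasm (limma adjusted p = 0.00274, 0.0136 and 0.0385). The block called 547 of the 20611 genes tested in that contrast. Pou5f1 had a higher mean there, at 1448 ± 130 TPM in control and 1669 ± 557 TPM in the double knockdown. Zfp42 was also called lower in the nucleoplasm of each knockdown. Mitochondrial transcripts made up 9.31 to 22.5% of the TPM in nucleoplasmic libraries, 0.0416 to 0.111% in cytoplasmic ones and 0.511 to 1.68% in chromatin ones.

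The members differ at a short stretch of their coding sequence. Cnih2 and Cnih3 encode 160 residues each, Cnih1 144 and Cnih4 139 in their principal transcripts, and in an alignment of the 4 proteins 16 codons (48 bases) were held by Cnih2 and Cnih3 and missing from the principal Cnih1 and Cnih4 transcripts. The stretch is shown because it separates the 2 AMPA receptor partners from the other 2 members; in Cnih2 this loop is known to bear on receptor binding. The lines below give it 5′ to 3′ on the coding strand from GENCODE M21 transcripts, with the 48 bases in capitals and 15 bases of coding sequence on either side. Lower case alone marks the same place in the members without it.

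Cnih2: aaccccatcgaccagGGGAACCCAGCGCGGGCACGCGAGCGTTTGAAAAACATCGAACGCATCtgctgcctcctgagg
Cnih3: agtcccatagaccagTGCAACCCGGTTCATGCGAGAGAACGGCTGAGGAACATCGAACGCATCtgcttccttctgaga
Cnih1: aaccctatagaccagtgcaataccctgaac
Cnih4: aacgccagatcatgttgctcaaaattaaac

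The printed stretch of Cnih2 lies at chr19:5094287-5094764 (minus strand, mm10) and that of Cnih3 at chr1:181406503-181409673 (plus strand), each across 1 exon junction. The Cnih1 bases are at chr14:46784115-46784144 (minus strand) and the Cnih4 bases at chr1:181153771-181153800 (plus strand), all coding and within 1 exon. The edges of the capitals follow the alignment and could be drawn a few bases away. A second coding transcript of Cnih1 also carries an additional 48 bases, as a different exon at chr14:46783826-46783873, and encodes 160 residues. In that transcript the additional bases follow shortly after the printed Cnih1 bases. That transcript was not part of the alignment, so whether its additional bases match the stretch of Cnih2 and Cnih3 was not tested. Over the aligned codons Cnih2 and Cnih3 were identical at 77.1% of nucleotides and 81.25% of residues, whereas Cnih4 matched the other 3 at 48.7 to 49.4% of nucleotides. No run of 31 bases was shared between any of the members' transcripts, so the genes can be told apart by short exact matches. Runs shared with other genes made up 0.642% of those of Cnih3, 2.04% of those of Cnih4 and 0 of those of Cnih1 and Cnih2.

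Cnih3 and Cnih4 are neighbours on chromosome 1. Cnih3 spans chr1:181352628-181460641 (plus strand, 108014 bases) and Cnih4 chr1:181144693-181168994 (plus strand), with 183633 bases between them that hold the protein-coding gene Wdr26. Cnih1 lies at chr14:46775567-46788411 (minus strand) and Cnih2 at chr19:5092868-5098521 (minus strand), where its last 14 bases overlap the end of Yif1a on the other strand. In the RefSeq promoter table (GRCm38.p6) the 250 bases before the start of Cnih3 held 36 CG dinucleotides, more than 97.4% of 32851 promoters. The same window held 17 in Cnih2, 13 in Cnih1 and 6 in Cnih4, where the median promoter held 6.

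Values are TPM, each gene's share of all transcripts in a library, which are scaled for transcript length and can be compared between genes. In control cells Cnih1 and Cnih4 were the abundant members, Cnih2 was intermediate and Cnih3 was close to the bottom of the range. In the control cytoplasm the order was Cnih1 at 52.3 ± 22.1 TPM, Cnih4 at 32.6 ± 3.43 TPM, Cnih2 at 8.91 ± 1.75 TPM and Cnih3 at 0.16 ± 0.0361 TPM. Libraries of Cnih1 and Cnih4 overlapped there and in the control nucleoplasm, while in control chromatin Cnih4 at 51.4 ± 7.25 TPM lay above Cnih1 at 23.8 ± 8.68 TPM in every library. Cnih2 and Cnih3 kept the lower places in all 9 groups, with no overlap between Cnih2 and the members above it or between Cnih2 and Cnih3.

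**Figure D1:**
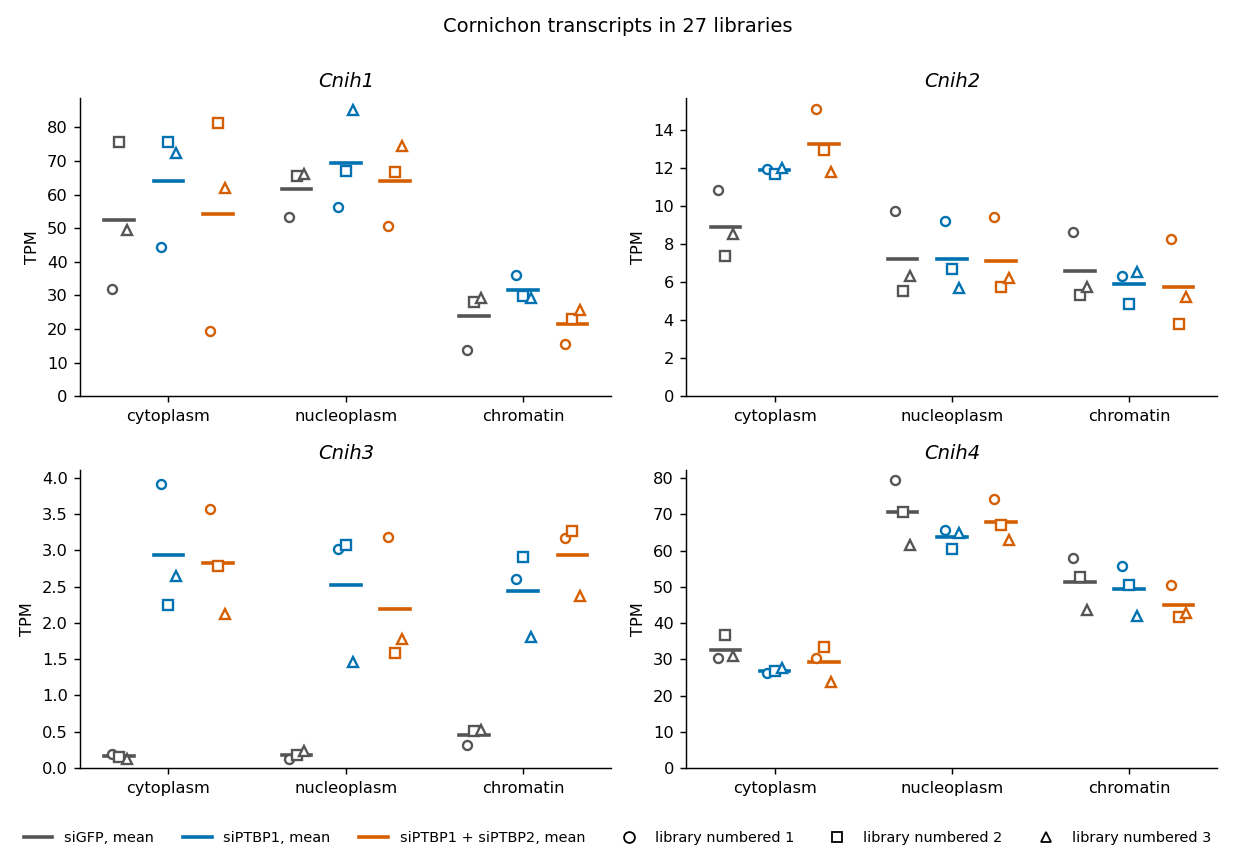
TPM of each cornichon gene (vertical axis, linear from 0, different in each panel) in the cytoplasm, nucleoplasm and chromatin of siGFP, siPTBP1 and double knockdown cells; symbols are single libraries by replicate number and bars are means of 3. Cnih3 lies between 0.13 and 0.53 TPM in the 9 control libraries and between 1.46 and 3.92 TPM in the 18 knockdown libraries, while the control and knockdown libraries of the other members mostly overlap.

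Cnih3 was nearly silent in control cells. Its control values were 0.20, 0.15 and 0.13 TPM in the cytoplasm, 0.13, 0.18 and 0.23 TPM in the nucleoplasm and 0.32, 0.51 and 0.53 TPM in chromatin. The number of reads behind values of this size is unknown, and none was 0.

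After siPTBP1 the Cnih3 values were 3.92, 2.24 and 2.65 TPM in the cytoplasm, 3.02, 3.08 and 1.46 TPM in the nucleoplasm and 2.61, 2.91 and 1.81 TPM in chromatin. In the double knockdown they were 3.57, 2.78 and 2.12 TPM, 3.19, 1.59 and 1.78 TPM, and 3.17, 3.27 and 2.37 TPM in the same order of fractions. Every knockdown library of a fraction lay above every control library of that fraction, and the lowest knockdown value of all, 1.46 TPM, lay above the highest control value, 0.53 TPM.

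The mean of Cnih3 after siPTBP1 was 18.4 times the control mean in the cytoplasm, 14.0 times in the nucleoplasm and 5.39 times in chromatin. In the double knockdown the ratios were 17.6, 12.1 and 6.48. On the log2(TPM + 1) scale, which understates changes of genes this low, the differences were 1.74, 1.54 and 1.23 for siPTBP1 alone and 1.70, 1.40 and 1.43 for both siRNAs, each with a standard error of 0.22. With a pseudocount of 0.1 in place of 1 they were 3.52, 3.17 and 2.20, and 3.47, 2.98 and 2.47. With quantile normalization the chromatin differences were 0.76 and 0.92. The smaller ratio in chromatin goes with a higher control level there, since the 6 knockdown groups had means of 2.19 to 2.94 TPM in every fraction.

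Ordered by level, the 6 knockdown groups of Cnih3 came first and each overlapped its neighbour in the order. The control chromatin group followed at 0.453 ± 0.116 TPM with no overlap on either side, and the control nucleoplasm at 0.18 ± 0.05 TPM and cytoplasm at 0.16 ± 0.0361 TPM overlapped each other. Even at its highest Cnih3 was the least abundant member, and its share of the summed cornichon TPM in the cytoplasm was 0.181 ± 0.0796% in control libraries, 2.92 ± 1.40% with siPTBP1 alone and 3.16 ± 1.78% with both siRNAs (n = 3). The family sum itself was 94.1 ± 23.7, 106 ± 16.7 and 99.5 ± 31 TPM.

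In the contrasts that chose Cnih3 few genes were called without the replicate block, and more were called with it. Of the 20611 genes tested, 0.228% were called after siPTBP1 in the cytoplasm, 0.16% in the nucleoplasm and 0.398% in chromatin (47, 33 and 82 genes; 377, 388 and 505 with the replicate block). For the double knockdown the shares were 0.243%, 0.155% and 0.427% (50, 32 and 88 genes; 547, 379 and 436 with the block). These shares are the background for counts of paralogs and pathway genes without the block. Counts with the block are read against the larger numbers.

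None of the 3 paralogs was called in any of these contrasts. Over the 18 comparisons of Cnih1, Cnih2 and Cnih4 with control, the differences ran from -0.27 to 0.53 on the log2(TPM + 1) scale, the adjusted p was 1 in all, and 0 had an unadjusted p under 0.05 in limma. None was called with the replicate block either. With nearly all genes uncalled in these contrasts, the absence of calls among 3 genes is no more than the background.

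**Figure D2:**
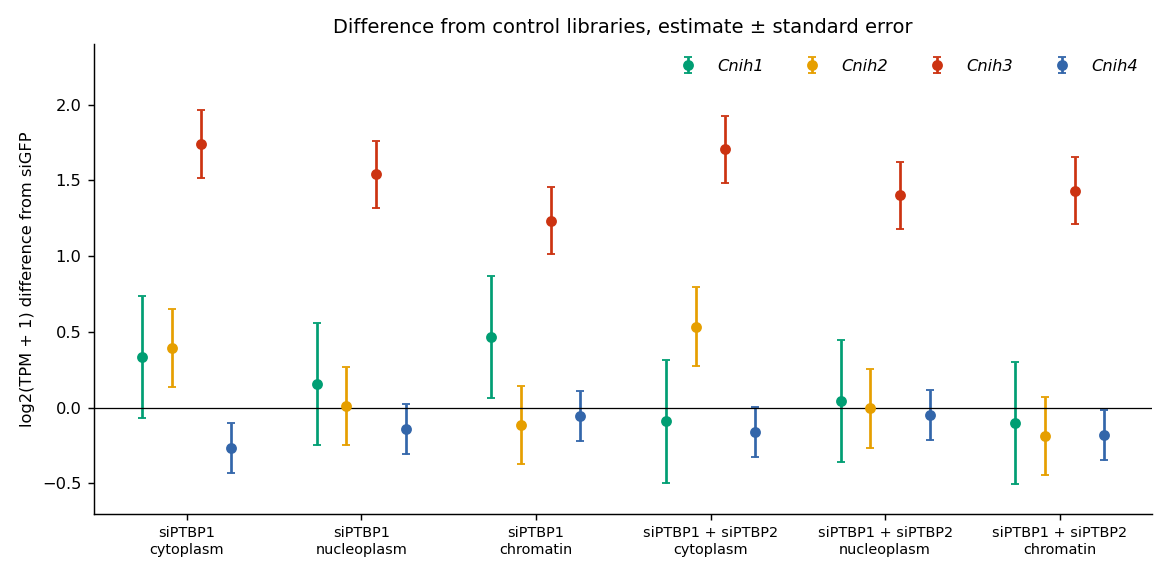
Difference of each cornichon gene from siGFP on the log2(TPM + 1) scale (vertical axis) after siPTBP1 and in the double knockdown, by fraction; points are limma estimates and bars their standard errors from 9 groups of 3 libraries. Cnih3, which was chosen for this difference, lies between 1.23 and 1.74 and the paralogs between -0.27 and 0.53.

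Cnih2, the other AMPA receptor partner, had the largest paralog difference, in the cytoplasm. Its cytoplasmic values were 10.82, 7.38 and 8.53 TPM in control, 11.97, 11.69 and 11.98 TPM after siPTBP1 and 15.10, 12.96 and 11.77 TPM in the double knockdown. Both knockdown groups lay above the control libraries with no overlap. The log2 differences were 0.39 ± 0.26 (SE; 95% interval -0.14 to 0.93) and 0.53 ± 0.26 (-0.0022 to 1.07), and with the block the adjusted p in limma was 0.26 and 0.0678. In the nucleoplasm the 3 treatments had means of 7.21 ± 2.24, 7.21 ± 1.80 and 7.14 ± 1.98 TPM, and in chromatin of 6.56 ± 1.79, 5.90 ± 0.903 and 5.76 ± 2.26 TPM, with overlap throughout.

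Cnih4, linked to the export of G protein-coupled receptors, was slightly lower after siPTBP1 in the cytoplasm. Its values there were 30.46, 36.59 and 30.85 TPM in control, 26.21, 26.69 and 27.70 TPM after siPTBP1 and 30.42, 33.38 and 23.86 TPM in the double knockdown. The siPTBP1 libraries lay below the control without overlap and the double knockdown overlapped it. The siPTBP1 difference was -0.27 ± 0.16 (95% interval -0.61 to 0.08; adjusted p = 1 in limma). In chromatin Cnih4 read 57.98, 52.67 and 43.64 TPM in control and 55.79, 50.60 and 41.91 TPM after siPTBP1, ratios of 0.960 to 0.962 between libraries of the same number.

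Cnih1, one of the broadly expressed members, varied more between libraries than between treatments. In the cytoplasm it read 31.94, 75.75 and 49.35 TPM in control, 44.47, 75.79 and 72.32 TPM after siPTBP1 and 19.38, 81.28 and 61.83 TPM in the double knockdown. In the nucleoplasm the means were 61.6 ± 7.30, 69.5 ± 14.5 and 63.9 ± 12.1 TPM. The widest interval among the paralogs in the fit without the block was therefore that of Cnih1. It was, for example, -0.50 to 1.17 for siPTBP1 in the cytoplasm, so changes of that size were not detectable for Cnih1 in that fit. With the block the limma adjusted p of that comparison was 0.824.

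Libraries numbered 1 stood apart for several members. Cnih1 was lowest in the library numbered 1 in 8 of 9 groups and highest in the other, and Cnih2 was highest in it in 7 of 9 groups. Cnih4 was highest there in 6 of 9 groups and lowest in 2, and Cnih3 highest in 4 and lowest in 2. Without those libraries no paralog was called after knockdown.

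No paralog was called between the double knockdown and siPTBP1 alone. Ptbp2 itself was called lower in that comparison only in the cytoplasm and only with the block (-1.13, limma adjusted p = 0.00506). Its differences were -0.51 in the nucleoplasm and -0.05 in chromatin. The 12 comparisons of the double knockdown with siPTBP1 had differences of -0.57 to 0.20, 0 had an unadjusted p under 0.05 in limma, and 0 were called with the block. For Cnih3 the differences were -0.04 (95% interval -0.50 to 0.42) in the cytoplasm, -0.14 (-0.60 to 0.32) in the nucleoplasm and 0.20 (-0.26 to 0.66) in chromatin. These comparisons share the libraries of both knockdowns with the contrasts that chose Cnih3. It also passed the filter only through those libraries. Its differences and intervals here are therefore read as a description. Cnih1 in chromatin read 36.18, 29.92 and 29.16 TPM after siPTBP1 and 15.51, 22.93 and 25.77 TPM in the double knockdown, without overlap, with a difference of -0.57 ± 0.40 (adjusted p = 1). Over all genes 0% were called in the cytoplasm (0 genes, 147 at an unadjusted p under 0.05 and 1 with the block), 0.00485% in the nucleoplasm and 0.107% in chromatin.

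Whether a knockdown acted differently between fractions was tested for the paralogs as a difference of differences. None of the 12 such comparisons was called, and 0 had an unadjusted p under 0.05. The lowest was that of Cnih2 in the double knockdown, where the chromatin effect minus the cytoplasmic effect was -0.72 ± 0.37 (SE; 95% interval -1.48 to 0.04; adjusted p = 1 in limma). Over all genes 0.0437% were called for chromatin minus cytoplasm after siPTBP1 and 0.0582% in the double knockdown, and 0.00485% for nucleoplasm minus cytoplasm in each. For Cnih3, as a description, the chromatin minus cytoplasm values were -0.51 after siPTBP1 and -0.27 with both siRNAs. With a pseudocount of 0.1, median-ratio scaling and quantile normalization they were -1.32, -0.96 and -1.02 after siPTBP1 and -1.0, -0.90 and -0.96 with both.

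Between the fractions of control cells Cnih1 was lower in chromatin and Cnih4 was higher in the nucleoplasm. Of the 9 comparisons of the paralogs between siGFP fractions, 5 were called in limma, all of them for Cnih1 and Cnih4. Fractions differ in composition, and the all-gene median of the log2 difference was 0.154 for nucleoplasm minus cytoplasm, 0.954 for chromatin minus cytoplasm and 0.679 for chromatin minus nucleoplasm. The shares of genes called were high too, 12.8%, 66% and 51.5%, against 1, 2 and 2 of the 3 paralogs, so the number of paralogs called is read as no result about the family. Whether one member differed from another was not tested. Median-ratio scaling brought the 3 medians to 0, 0.339 and 0.212, and quantile normalization to -0.134, -0.121 and -0.0825.

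Cnih1 was depleted from chromatin. Control chromatin held 13.79, 28.19 and 29.39 TPM against 53.21, 65.58 and 66.10 TPM in the nucleoplasm, a difference of -1.40 ± 0.40 (adjusted p = 0.00617 in limma). Against the cytoplasm the difference was -1.09 ± 0.40 (limma adjusted p = 0.0217, and 0.00133 with the block). In fits without the block it was not called when the control cytoplasmic library numbered 2 (-0.79, adjusted p = 0.121) or the control chromatin library numbered 1 (-0.76, adjusted p = 0.127) was left out. Only 4.75% of genes had a lower chromatin minus cytoplasm difference and 1.55% a lower chromatin minus nucleoplasm difference. The chromatin to cytoplasm ratio of the means was 0.454 in control, 0.495 after siPTBP1 and 0.395 in the double knockdown.

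Cnih4 was highest in the nucleoplasm. It read 79.51, 70.61 and 61.66 TPM there, above every cytoplasmic library, with a difference of 1.09 ± 0.16 (adjusted p = 5.54e-05 in limma), which exceeded that of 88.0% of genes. With median-ratio scaling the difference was 0.69 and no longer called (adjusted p = 0.0748). Mitochondrial transcripts, at 9.31 to 22.5% of TPM in nucleoplasmic libraries, differ between the same fractions, and their part in this difference was not tested. The nucleoplasm to cytoplasm ratio of the Cnih4 means was 2.16 in control, 2.37 with siPTBP1 alone and 2.33 with both siRNAs. The chromatin minus cytoplasm difference of Cnih4 was 0.64 ± 0.16 (adjusted p = 0.00199), below the all-gene median, and its sign turned with scaling, to -0.41 with median-ratio scaling and -0.28 with quantile normalization. Between chromatin and nucleoplasm it was -0.45 ± 0.16 (limma adjusted p = 0.0267, and 0.00342 with the block). In fits without the block this call was lost when the control chromatin library numbered 3 (-0.34), or the control nucleoplasmic library numbered 1 (-0.36) or 2 (-0.45), was left out.

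Cnih2 between control fractions depended on the processing. Its chromatin minus cytoplasm difference was -0.40 ± 0.26 (adjusted p = 0.179 in limma), but it was called with the replicate block (adjusted p = 0.0218) and without the libraries numbered 1 (-0.45, adjusted p = 0.036). With median-ratio scaling it was -1.34 (adjusted p = 0.0032) and with quantile normalization -1.81 (adjusted p = 0.000396). Quantile normalization also called its chromatin minus nucleoplasm difference, at -1.03 (adjusted p = 0.0337) against -0.11.

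Cnih3 in control fractions is described without a test, because no control library reached 1 TPM: the gene passed the filter through the knockdown groups, and its control values helped choose it. Its chromatin libraries, at 0.32 to 0.53 TPM, did not overlap the cytoplasmic ones at 0.13 to 0.20 TPM. The difference was 0.32 with a pseudocount of 1 and 1.08 with a pseudocount of 0.1.

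**Figure D3:**
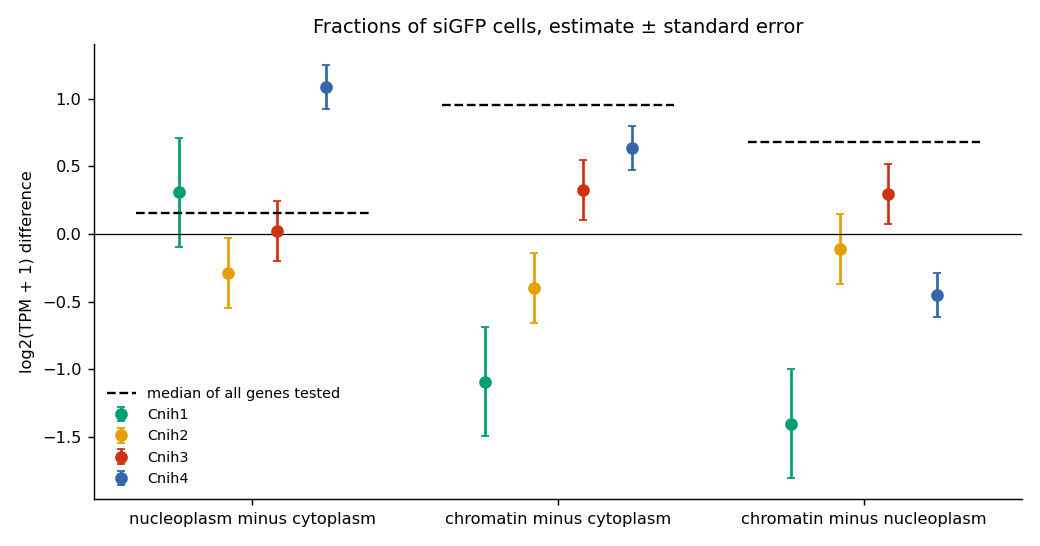
Differences between fractions of siGFP cells on the log2(TPM + 1) scale (vertical axis) for the 4 cornichon genes, with limma standard errors; the dashed line is the median of the 20611 genes tested. Cnih4 lies at 1.09 in nucleoplasm minus cytoplasm, and Cnih1 lies at -1.09 and -1.40 in the chromatin comparisons, well under the medians of 0.954 and 0.679.

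The receptors that Cnih2 and Cnih3 bind were at low levels in the cytoplasm. Of the 4 receptor subunits, Gria1 did not pass the filter, and 0 of the other 3 were called in any of the 6 knockdown contrasts, with 0 at an unadjusted p under 0.05. Gria2, the subunit that sets calcium permeability, stood at 0.0633 ± 0.0379 TPM in the control cytoplasm and 0.16 ± 0.147 TPM after siPTBP1. Gria3 stood at 0.183 ± 0.166 and 0.263 ± 0.185 TPM there. In control chromatin Gria2 was at 1.31 ± 0.244 TPM, and all 3 subunits were called higher there than in the cytoplasm, against 57.9% of all genes called higher. Under quantile normalization 0 of the 3 were called and their median turned to -0.04.

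Of 24 other AMPA receptor auxiliary and assembly genes, 19 passed the filter and 0 were called in any of the 6 knockdown contrasts, with 2 to 5 at an unadjusted p under 0.05 per contrast. Their median difference in the cytoplasm after siPTBP1 was 0.26, where that of all genes was 0.0571. Cpt1c and Pick1, the most abundant over all libraries, stood at 7.70 ± 0.949 and 29.8 ± 2.07 TPM in the control cytoplasm and at 9.11 ± 1.34 and 36.1 ± 6.23 TPM after siPTBP1. With the replicate block 1 or 2 of the 19 were called in 5 of the contrasts, all higher, and with quantile normalization 1 was called in the double knockdown cytoplasm. Cacng7, a transmembrane AMPA receptor regulator, read 19.4 ± 3.06 TPM in the control cytoplasm and 29.7 ± 5.63 TPM after siPTBP1 (0.59; adjusted p = 0.313, and 0.0269 with the block).

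No gene of the export machinery was called on knockdown without the replicate block. All 16 genes of the COPII coat and its assembly were tested and 0 were called in the 6 contrasts, with 0 to 2 at an unadjusted p under 0.05. Preb, the exchange factor that loads SAR1, stood at 102 ± 3.38 and 132 ± 13.1 TPM in the control and siPTBP1 cytoplasm, and Sec13, a component of the outer coat, at 192 ± 12.4 and 211 ± 15.6 TPM. Of 25 other cargo receptors and related proteins of the early secretory pathway 0 were called, with 0 to 5 at an unadjusted p under 0.05, and with the block 2 were called higher after siPTBP1 in the nucleoplasm and 1, Lman2, in each of siPTBP1 chromatin, double knockdown nucleoplasm and double knockdown chromatin (adjusted p = 0.0165, 0.00815 and 0.00191). The median difference of the 25 in the siPTBP1 nucleoplasm was 0.40, with 24 of 25 above the all-gene median of -0.01, and Tmed2 and Tmed9, the most abundant over all libraries, stood at 177 ± 19.2 and 212 ± 36.4 TPM in control and 185 ± 19.9 and 290 ± 52.2 TPM after siPTBP1. Lman2, a lectin that escorts glycoproteins, was also one of the 2 in the siPTBP1 nucleoplasm, with 73.6 ± 11.4 TPM in the control nucleoplasm and 112 ± 23.3 TPM after siPTBP1 (0.59; adjusted p = 0.725, and 0.00968 with the block).

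Between control fractions the other cargo receptors mostly lay higher in the nucleoplasm than in the cytoplasm, as Cnih4 did. In nucleoplasm minus cytoplasm 17 of 25 were called higher and 0 lower, where 12.3% of all genes were called higher, and their median was 1.19 against 0.154. With median-ratio scaling and with quantile normalization 11 were called higher and 0 lower, where 2940 and 2239 of all genes were called in either direction. In chromatin minus nucleoplasm 8 were called lower, against 5.48% of all genes, and 3 higher, against 9479 of the 20611 genes tested. Tmed9, a p24 cargo receptor, read 41.9 ± 3.86 TPM in the control cytoplasm and 212 ± 36.4 TPM in the nucleoplasm (2.30; adjusted p = 2.50e-05 in limma), and Bcap31 had a difference of 3.01 (adjusted p = 3.66e-08). The nucleoplasmic libraries are those with 9.31 to 22.5% mitochondrial TPM, and what part that composition has in these differences was not tested.

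Ligands that cornichons are known to escort were also listed. Of 18 genes for EGF family ligands, their receptors and shedding enzymes, 13 were tested and 1 was called in a knockdown contrast, against 0.107% of all genes called higher in that contrast. With the block Nrg1, a ligand, was also called after siPTBP1 in the cytoplasm, where it stood at 4.45 ± 0.799 TPM in control and 9.48 ± 2.86 TPM after siPTBP1 (0.92; adjusted p = 0.528, and 0.039 with the block). Egfr, the receptor, stood at 2.92 ± 0.413 TPM in the control nucleoplasm and 7.76 ± 1.2 TPM after siPTBP1 (1.16; adjusted p = 0.0369 in limma). That call was lost in each of the 6 fits that left out 1 of these libraries (adjusted p = 0.0598 to 0.2). Tgfa, a ligand, stood at 2.75 ± 1.41 and 2.83 ± 1.23 TPM in the same groups.

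No tested gene around the cornichons was called on knockdown. Of the 19 nearest protein-coding neighbours, 3 on each side of each member, 16 were tested, with 0 to 2 at an unadjusted p under 0.05 and 0 with the block. The 5 tested neighbours of Cnih3 and Cnih4 had differences of -0.43 to 0.27. Wdr26, between the 2 cornichons, differed by -0.07 after siPTBP1 in the cytoplasm, and Dnah14, the nearest tested gene beyond Cnih3, by -0.09. Ccdc121, which lies nearer, did not pass the filter. The most abundant neighbours, Lbr and Rab1b, stood at 23.4 ± 11.1 and 120 ± 16.3 TPM in the control cytoplasm and 26.0 ± 10.2 and 138 ± 28.6 TPM after siPTBP1.

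**Figure D4:**
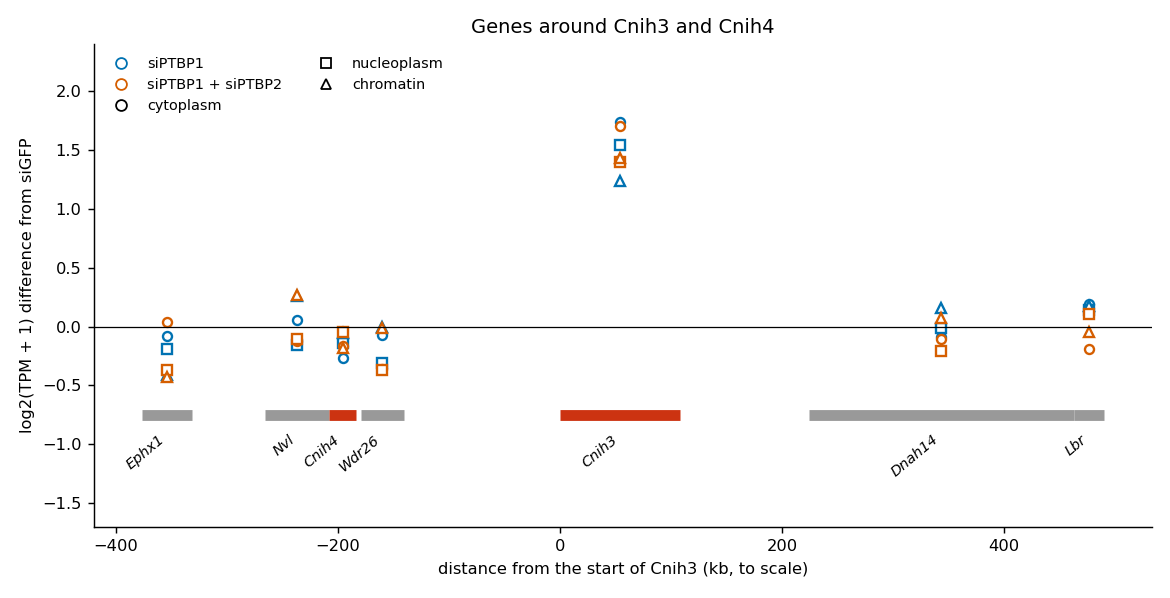
Genes around Cnih3 and Cnih4 drawn to scale by distance from the start of Cnih3 (horizontal axis, kb; bars are gene spans, cornichons in red) with the difference of each from siGFP on the log2(TPM + 1) scale (vertical axis) in the 6 knockdown contrasts. The 6 values of Cnih3 lie between 1.23 and 1.74 and those of the 5 other tested neighbours between -0.43 and 0.27.

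Within the span of Cnih3 lies 2900069G24Rik, a provisional annotation on the same strand (chr1:181381178-181382488), named here after its values were seen. It was listed at 0 in all 9 control libraries, at 0.15, 0.34 and 0.17 TPM in siPTBP1 chromatin and at 0.09, 0.09 and 0.17 TPM in double knockdown chromatin. Every cytoplasmic library was at 0, and 1 nucleoplasmic library, of the double knockdown, read 0.05 TPM. The entry did not pass the filter, and its reads cannot be told apart from reads of unspliced Cnih3 in gene values.

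Markers of other cell types were read beside the Cnih3 values. The summed level of 5 muscle markers was 14.3 to 20.7 TPM in the control cytoplasm, 48.2 to 93.6 TPM after siPTBP1 and 40.2 to 85.5 TPM in the double knockdown. It was 18.2 to 24.5, 83.3 to 143 and 77.2 to 154 TPM in the nucleoplasm and 21.2 to 34.9, 44.6 to 79.6 and 45.7 to 74.3 TPM in chromatin. Of the 4 tested, Actc1, cardiac actin, was called in all 6 contrasts and the others in none. Actc1 stood at 1.05 ± 0.746 TPM in the control cytoplasm and 52.9 ± 24.5 TPM after siPTBP1 (adjusted p = 0.000177 in limma). Most of the sum in each knockdown group was Actc1, at 97.2 ± 34.3 TPM in the siPTBP1 nucleoplasm and 44.5 ± 19.4 TPM in siPTBP1 chromatin. The median difference of the 4 after siPTBP1 was 0.13, -0.07 and -0.12 in cytoplasm, nucleoplasm and chromatin. The all-gene medians there were 0.0571, -0.01 and 0.0868. The 11 neuron markers summed to 175 to 212 TPM in the control cytoplasm, 190 to 204 TPM after siPTBP1 and 201 to 295 TPM in the double knockdown, with 6, 6 and 5 of the 11 under a mean of 1 TPM. Most of that sum was Tubb3, at 182 ± 19.8 TPM in control and 187 ± 8.71 TPM after siPTBP1. Of the other tested neuron markers, some were higher and some lower in the siPTBP1 cytoplasm. The higher ones were Rbfox3, at 0.787 ± 0.402 TPM in control and 2.46 ± 0.658 TPM after siPTBP1, Camk2a, at 1.15 ± 0.302 and 2.53 ± 0.365 TPM, and Snap25, at 0.177 ± 0.191 and 0.897 ± 0.535 TPM. The lower ones were Elavl3, at 3.55 ± 0.813 and 2.20 ± 0.445 TPM, Slc17a7, at 3.02 ± 0.215 and 2.29 ± 0.280 TPM, and Gad1, at 1.45 ± 0.429 and 0.87 ± 0.101 TPM. The median difference of the 7 tested neuron markers there was 0.04, with 3 of 7 above the all-gene median of 0.0571. The corresponding sums of 4 neural progenitor markers were 11.4 to 22.8, 18.4 to 33.2 and 16.8 to 33.9 TPM, those of 4 astrocyte markers 7.91 to 11.1, 8.98 to 11.3 and 7.56 to 9.46 TPM, and those of 6 fibroblast markers 10.4 to 15.6, 7.41 to 14.7 and 9.25 to 18.7 TPM. None of the tested neuron, progenitor, astrocyte and fibroblast markers was called in the cytoplasm without the block, and with it Rbfox3, Camk2a and the progenitor marker Sox1 were called higher there in each knockdown. In chromatin the block called Rbfox3, Camk2a, Snap25 and Sox1 higher in each knockdown. For siPTBP1 and the double knockdown, the block called 377 and 547 of all genes in the cytoplasm and 505 and 436 in chromatin. Tubb3, Elavl3, Slc17a7 and Gad1 had lower means in siPTBP1 chromatin than in control chromatin. The chromatin median of the 7 tested neuron markers was -0.18 after siPTBP1 and 0.04 in the double knockdown. In each case 3 of 7 lay above the all-gene median (0.0868 and 0.0714). The part of other cells in the Cnih3 values was not tested.

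The genes most like each member were found by Pearson r on log2(TPM + 1) over the 27 libraries, which all genes share, and are given as a description. For Cnih3 they were Myl3 (r = 0.90), Tspan5 (0.89), Phc2 (0.88), Zfyve21 (0.85) and Cabp7 (0.85). Myl3, a myosin light chain, had means of 0.68 TPM in the control cytoplasm, 4.76 TPM after siPTBP1 and 4.09 TPM in the double knockdown, and 0.533, 3.79 and 3.46 TPM in chromatin. After the mean of each fraction was subtracted, Myl3 (0.92), Tspan5 (0.90), Pgbd5 (0.89), Zfyve21 (0.89) and Cabp7 (0.88) came first.

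The paralogs had other companions. Rpa3, Med30 and Hsbp1 were closest to Cnih1 (r = 0.96 for each), and Rpa3 had 46.3, 52.6 and 18.4 TPM in control cytoplasm, nucleoplasm and chromatin. Dcakd, Arf3 and Fis1 were closest to Cnih2 (r = 0.95 for each), and Arf3 had means of 81.4, 130 and 147 TPM in the cytoplasm of the 3 treatments. Aqp3 and Apoe (r = 0.98 for each) and Retsat (0.96) were closest to Cnih4, and Aqp3 had 2.80, 19.3 and 12.4 TPM in control cytoplasm, nucleoplasm and chromatin. No gene was named for more than 1 member.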

How the data were processed

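PolyA+ RNA of 3 subcellular fractions of E14 cells under 3 siRNA treatments was sequenced as stranded libraries. The values used are the authors' deposited TPM per gene, with every library scaled to the same total. Per the submitters' processing notes STAR, kallisto and mm10 were used; versions, the annotation release and any use of strand in counting are not given in the sources used here. TPM keeps no depth, so the reads behind each value are unknown and no counting interval is given.

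Groups came from the labelled treatment and fraction. Genes with at least 1 TPM in at least 3 of 27 libraries entered one linear model of log2(TPM + 1) in limma (3.58.1, under R 4.3.3; 9 group means, trend and robust settings, two-sided, Benjamini-Hochberg over all 20611 genes, called at an adjusted p under 0.05, 18 residual degrees of freedom). The fit was tested on simulated data with independent noise in each library, so that test cannot speak for paired libraries. The deviations of libraries with the same number correlated in all 108 pairs (lowest r 0.13, median 0.365; different numbers, median -0.213), so the numbers pair the samples. The main fit leaves this pairing out, and fits with the number as a block stand beside results they change. Alternatives were the block, a pseudocount of 0.1, no filter, median-ratio scaling, quantile normalization, the compared groups alone, and leaving out each library or all libraries numbered 1.

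The members and the gene lists were chosen with earlier results of these data known. From each list, called genes or, failing these, the most abundant were named. Also named were the 5 genes most like Cnih3 and the 3 most like each paralog with a mean of at least 1 TPM. Cacng7, Lman2, Nrg1, Tgfa, the pluripotency and neuron markers, Sox1, Wdr26, Dnah14 and 2900069G24Rik were named after their values were seen. Coordinates and transcripts are from GENCODE M21 (GRCm38, the assembly of mm10), which held 53274 of the gene IDs. The translated coding sequences were aligned with MAFFT 7.526. Intron retention was not analysed here.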

Additional observations from a re-analysis of the deposited data

How the results depend on the processing

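No paralog was called after knockdown, with the added PTBP2 siRNA or in the differences between effects under any alternative run. In the replicate block the chromatin minus cytoplasm difference of Cnih2 was called at -0.40, and likewise without the libraries numbered 1 (-0.45), with median-ratio scaling (-1.34) and with quantile normalization (-1.81; -1.03 for chromatin minus nucleoplasm); the paired fit changed no other call of a member. The Cnih3 knockdown differences moved with a pseudocount of 0.1 (3.52, 3.17 and 2.20 after siPTBP1, 3.47, 2.98 and 2.47 in the double knockdown, for cytoplasm, nucleoplasm and chromatin), with median-ratio scaling (0.94 in siPTBP1 chromatin, 2.02 and 1.12 in double knockdown cytoplasm and chromatin) and with quantile normalization (0.76 and 0.92 in chromatin). The chromatin minus cytoplasm effects of Cnih3 were -1.32, -0.96 and -1.02 after siPTBP1 and -1.0, -0.90 and -0.96 in the double knockdown under those 3 settings. With a pseudocount of 0.1 the control chromatin of Cnih3 lay above the cytoplasm by 1.08 and the nucleoplasm by 0.98. Cnih4 gave 0.69 for nucleoplasm minus cytoplasm with median-ratio scaling, -0.41 and -0.28 for chromatin minus cytoplasm with median-ratio scaling and quantile normalization, and -0.45 (adjusted p = 0.116) for chromatin minus nucleoplasm in the fit of those groups alone. Leaving out 1 library gave -1.40 to -0.76 for Cnih1 chromatin minus cytoplasm and -0.54 to -0.34 for Cnih4 chromatin minus nucleoplasm. Other than in the scalings and the pseudocount, whose construction changes the scale, the cause was not tested.

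The number of genes called depended on the fit. For siPTBP1 the counts of 47, 33 and 82 ran over the alternatives that leave out no single library from 8 to 377, 4 to 388 and 24 to 505, and for the double knockdown those of 50, 32 and 88 ran from 0 to 547, 2 to 379 and 6 to 436, the lowest in fits of the compared groups alone and the highest with the replicate block. The double knockdown against siPTBP1 had 0 to 4, 0 to 9 and 11 to 135 (0, 1 and 22), and nucleoplasm minus cytoplasm 2239 to 5830 (2638). The differences of effects had 1 to 9 (1) and 6 to 50 (9) after siPTBP1 and 1 to 8 (1) and 7 to 79 (12) in the double knockdown. TPM carries no depth, so which low values rest on few reads is unknown.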
